A study of Mus musculus with 20 samples.

Results

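The canonical WNT pathway was followed through 10 genes of its antagonist, receptor, ligand-maturation and transcription steps in 20 single cells of the mouse inner cell mass: Dkk1, Axin2, Tcf7l1, Tcf7, Lef1, Lrp5, Lrp6, Fzd5, Fzd7 and Porcn. The genes were chosen by name, and each was read from the probe set (a group of array probes for 1 transcript) annotated to its symbol that had the highest mean over the cells. Any other probe set of the same gene served as a check. Of the 10 genes, 9 had a probe set named for them alone, out of 18193 genes named on the array, and Tcf7 is not reported with a value because no probe set was named for it here. The cells formed 1 group: untreated C57BL/6 blastocysts at embryonic day 3.5 were taken apart, 55 single cells were picked at random, and 50 were kept as inner cell mass after a PCR screen for Oct4 and against Cdx2, a trophectoderm gene. Each of the 20 arrays carried the amplified cDNA of 1 cell. The labels do not say which cells came from the same embryo, so the spread between cells mixes differences within and between embryos with that of amplification.

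WNT proteins are secreted ligands that are made active by a lipid, which the enzyme Porcn attaches. They bind a Frizzled receptor together with Lrp5 or Lrp6, and the complex stops the Axin and Apc assembly from destroying beta-catenin, which then joins TCF and LEF factors at target genes. Dkk1 is secreted and blocks Lrp5 and Lrp6, while Axin2 and Lef1 are targets by which activity is often read. In mouse embryonic stem cells the pathway supports self-renewal, chiefly by lifting the repression that Tcf7l1 places on pluripotency genes. Later, Dkk1 from the anterior visceral endoderm, a descendant of the primitive endoderm, helps to place the head end of the embryo.

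Levels are given as log2(intensity + 8.48) after quantile normalization, on which 3.25 is the lowest value possible and 1 unit is a 2-fold step. A gene was called detected in a cell when it exceeded the 95th percentile of 151 probe sets of olfactory and vomeronasal receptors and genes of unrelated tissues on that array, a floor of 6.74 to 7.47. Between 34% and 41.1% of the named genes were detected in a cell. Clustering on 500 variable genes, none of them a WNT gene or lineage marker, split the cells into 10 that carried epiblast markers and 10 that carried primitive endoderm markers. Fgf4 was detected in 10 of 10 cells of the first cluster and 0 of 10 of the second. Of the fixed markers measured well enough to compare, 11 of 11 epiblast genes were higher in the first cluster and 12 of 13 primitive endoderm genes in the second. Of 7 trophectoderm markers, 2 were higher in the first cluster and 5 in the second, with 2 to 6 of 13 detected in each epiblast-like cell and 3 to 5 in each primitive endoderm-like cell, and Elf5, Gata3, Krt7, Krt19 and Atp12a in 0 cells. The split itself was shallow, with a silhouette width of 0.12, and cell 16 changed side under some settings. The arrays of cells 4, 9, 17 and 20 correlated least with the others. Because the clusters were made from the same arrays, differences between them are described without a p-value. Each gene is set only against itself between cells, since the brightness of different probe sets cannot be compared.

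Of the 9 genes with a probe set, 6 were detected in at least 3 cells: Dkk1, Axin2, Tcf7l1, Lrp6, Fzd5 and Porcn. Over all named genes that share was 52.5% (9545 of 18193). Fzd5 was detected in 19 cells, Porcn in 18, Axin2 in 17, Tcf7l1 and Lrp6 in 13 each, and Dkk1 in 9. None of the 6 was detected in all 20 cells, which 30.3% of the 9545 genes were. Lef1, Lrp5 and Fzd7 were detected in 0 cells. A single cell held between 3 and 6 of the 6 genes, and cells 15, 17 and 20, all primitive endoderm-like, held all 6. Epiblast-like cells 2, 12 and 14 and primitive endoderm-like cell 6 held 5 and lacked only Dkk1.

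**Figure D1:**
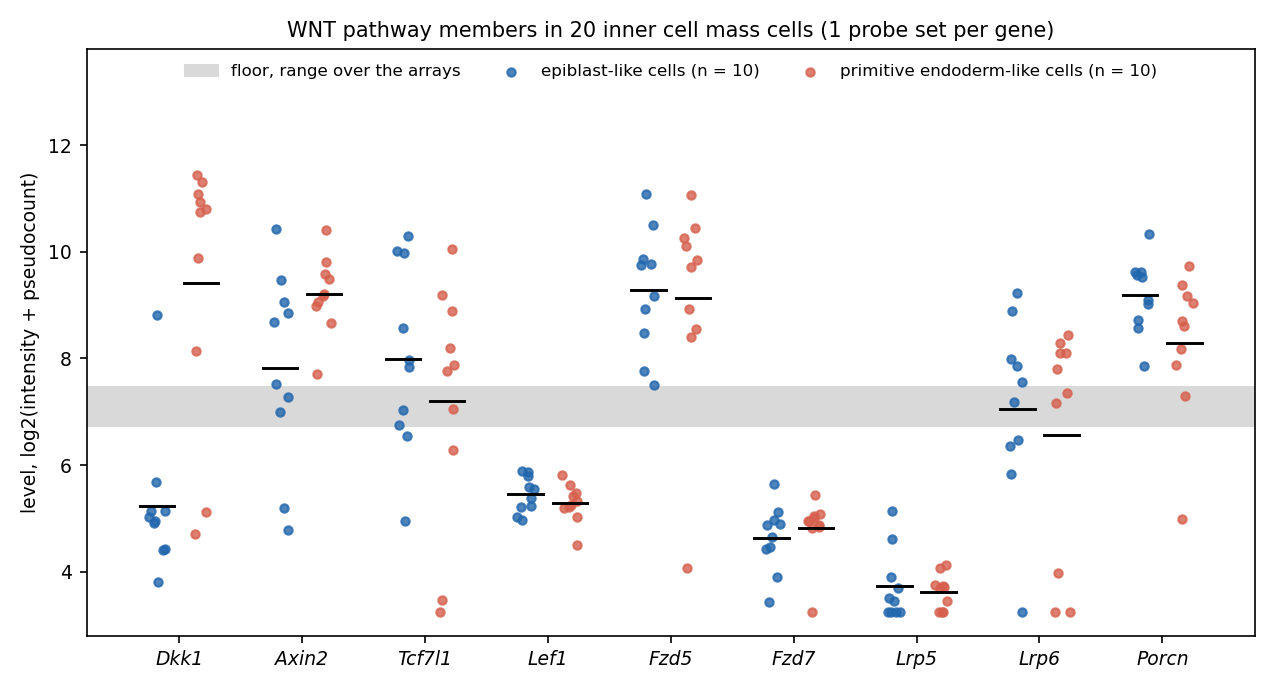
Levels of 9 WNT genes in the 20 cells, on the log2(intensity + pseudocount) axis; each point is 1 cell, blue epiblast-like (n = 10) and red primitive endoderm-like (n = 10), the black line is the cluster mean, and the grey band is the range of the array floors. Dkk1 divides the clusters, with 1 blue and 8 red points above the band, while Lef1, Fzd7 and Lrp5 lie wholly under it.

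Dkk1, the secreted antagonist, was the gene of the set that differed most between the clusters. It was detected in 1 of the 10 epiblast-like cells and in 8 of the 10 primitive endoderm-like ones. In the primitive endoderm-like cells its level was 11.44 in cell 20, 11.30 in cell 4, 11.08 in cell 5, 10.93 in cell 15, 10.80 in cell 3, 10.75 in cell 10, 9.88 in cell 8, 8.13 in cell 17, 5.13 in cell 6 and 4.71 in cell 11. In the epiblast-like cells it was 8.82 in cell 1 and at most 5.68 in the other 9, with a lowest value of 3.81 and a median of 4.99. The clusters therefore overlapped through 3 cells: cell 1 on one side and cells 6 and 11 on the other. The means were 5.23 ± 1.36 (SD, n = 10) and 9.42 ± 2.56 (SD, n = 10), a difference of −4.18 for epiblast-like minus primitive endoderm-like. With every value under its floor raised to that floor, the difference was −2.64, or a 6.25-fold lower level in the epiblast-like cells.

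Against all 9545 genes, Dkk1 ranked 16 by its excess in the primitive endoderm-like cells as read and 17 with values raised to the floor. In that direction 8.18% of the genes differed by at least 1 log2 unit as read and 2.8% with values raised, and in the epiblast-like direction 11.7% and 3.36%. Only 0.744% of the genes had at least 6 more detected cells on the primitive endoderm-like side than on the other; Dkk1 was among them. Leaving out any 1 cell left the Dkk1 difference between −4.71 and −3.96. Without cells 4, 9, 17 and 20 the difference was −3.80. Over the 20 cells, Dkk1 with values raised to the floor was set against array quality. Its Pearson r was −0.55 with the mean correlation of an array with the others and 0.07 with the median intensity of the array. The part of array quality in the difference was not tested.

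A second Dkk1 probe set, with a lower mean, was detected in 4 cells, all primitive endoderm-like. These were cell 15 at 8.16, cell 20 at 7.58, cell 3 at 7.35 and cell 4 at 7.18, and all 4 were also high by the first probe set. Its cluster difference was −1.93 as read and −0.29 with values raised to the floor, and its r with the first probe set was 0.77 (Spearman rho 0.60) over the 20 cells. For the other 5 cells detected by the first probe set, the second gave no detection.

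The 3 exceptional cells were also read for their lineage markers. All 9 cells with Dkk1 detected also had Sox17, an endoderm transcription factor, and 0 cells had Dkk1 without Sox17. Cells 6 and 11 had Sox17 without Dkk1, at Sox17 levels of 11.31 and 11.87, and the other 9 cells had neither. Cell 1 was the only epiblast-like cell with Sox17 detected, at 9.36, and it had Fgf4 at 12.21, while Gata4 was at the lower limit of 3.25 and Gata6 at 4.72. Cell 6 carried Nanog at 11.83, the highest Nanog level among the primitive endoderm-like cells, and Gata4 at 7.37, the lowest there. Cell 11 differed from cell 6, with Gata4 at 10.37 and Nanog at 9.55. These levels and its Sox17 lay within the range of the primitive endoderm-like cells with Dkk1, so these markers did not set it apart. With Gata4, Dkk1 was shared in 8 cells, alone in 1 and not detected in 2 Gata4 cells. Gata6 was detected more widely, in 14 cells, of which 8 had Dkk1. With values raised to the floor, Dkk1 had an r of 0.30 with the primitive endoderm marker score over the 10 primitive endoderm-like cells. This r ranged from −0.53 without cell 6 to 0.52 without cell 11, so it had no settled sign. Over the 10 epiblast-like cells the r was 0.15, but Dkk1 was detected in only 1 of them. The other values there were array floors, so that r cannot show whether Dkk1 follows the score.

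**Figure D2:**
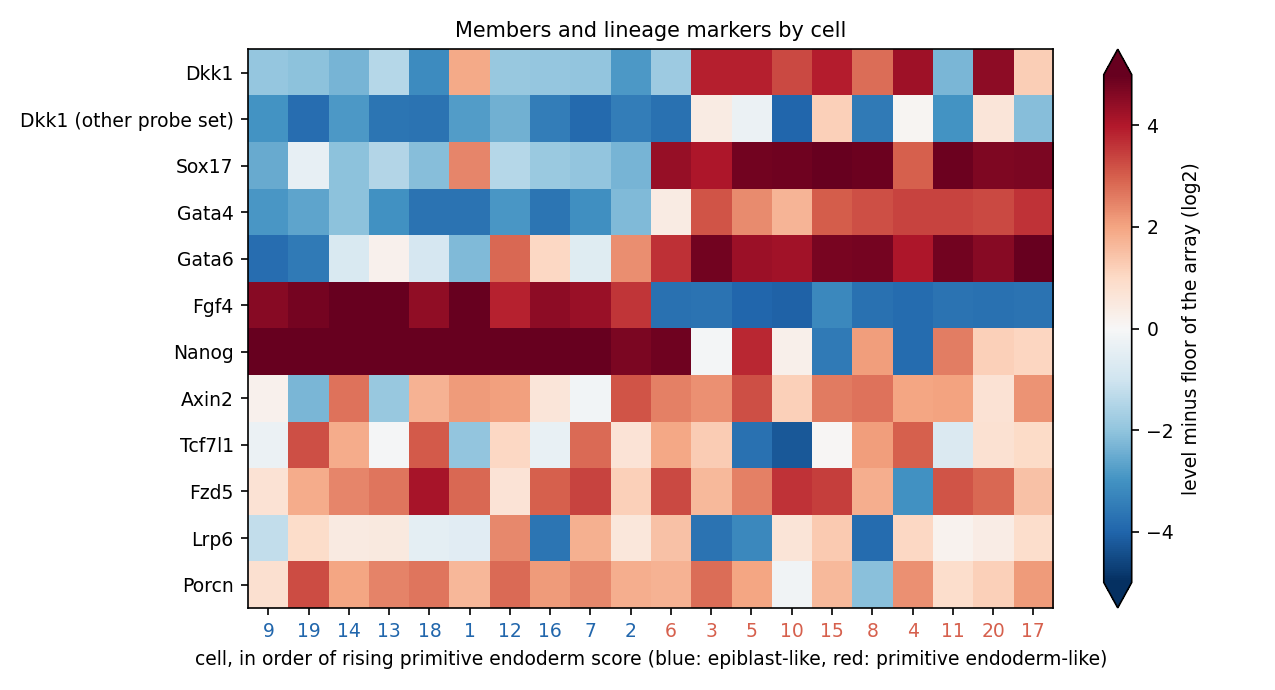
Level minus the floor of the array (log2, colour) for Dkk1 by both probe sets, for the lineage markers Sox17, Gata4, Gata6, Fgf4 and Nanog, and for Axin2, Tcf7l1, Fzd5, Lrp6 and Porcn, with cells in order of rising primitive endoderm score; the colour scale ends at 5 units either way. The Dkk1 row turns red with Sox17, except in cells 6 and 11, and cell 1 is red for both among the epiblast-like cells.

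Axin2, a scaffold of the destruction complex and a feedback target of the pathway, was detected in all 10 cells of the primitive endoderm-like cluster and 7 of 10 of the epiblast-like cluster. The 3 cells without detection had 4.77 in cell 19, 5.20 in cell 13 and 7.0 in cell 7. The other epiblast-like cells ran from 7.28 in cell 9 to 10.42 in cell 2, and the primitive endoderm-like cells from 7.70 in cell 20 to 10.42 in cell 5, with a median of 9.19. The primitive endoderm-like range thus lay within the epiblast-like one, which reached further down through the 3 cells without detection. The means were 7.82 ± 1.83 (SD, n = 10) and 9.21 ± 0.72 (SD, n = 10), a difference of −1.39, or −0.95 with values raised to the floor. Cell 19, whose array had the lowest median intensity (15, against 25.6 to 30.2 in the others), held the lowest value, and without it the difference was −1.05. A second Axin2 probe set gave detection in 1 cell and gave a difference of 0.09, the opposite sign, so the difference rests on 1 probe set. Every cell with Dkk1 detected also had Axin2, and 8 cells had Axin2 without Dkk1. With Axin2 detected in 17 of the 20 cells, such an overlap says little about the pair.

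As both genes are known WNT targets whose mean was higher in the second cluster, the 250 bases before their RefSeq starts (build GRCm38.p6) are printed, 5′ to 3′ on the strand of the gene. A match to the letters CTTTGAT or CTTTGTT on either strand, forms bound by TCF and LEF factors, is in capitals. The second form is also the core that SOX factors recognise.
Dkk1, chr19:30549497-30549746, minus strand: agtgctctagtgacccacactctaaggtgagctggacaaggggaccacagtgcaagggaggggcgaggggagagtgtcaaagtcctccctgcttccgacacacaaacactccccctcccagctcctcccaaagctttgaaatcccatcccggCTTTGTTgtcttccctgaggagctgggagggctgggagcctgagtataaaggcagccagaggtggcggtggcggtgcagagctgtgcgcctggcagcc
Axin2, chr11:108920099-108920348, plus strand: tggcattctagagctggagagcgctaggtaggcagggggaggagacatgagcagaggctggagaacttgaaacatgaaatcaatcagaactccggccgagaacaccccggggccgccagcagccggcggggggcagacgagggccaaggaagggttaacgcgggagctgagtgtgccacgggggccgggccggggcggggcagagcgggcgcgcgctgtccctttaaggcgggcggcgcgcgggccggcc
The Dkk1 window held 1 match, CTTTGTT, which began 98 bases before the gene start, and the Axin2 window held 0. Over all 32851 windows of this length, 8.06% held a match. Among the 10 genes, 7 were in the promoter table with 11 windows, and the only other match was in the Fzd7 window. These matches describe letters and were not tied to any binding measurement.

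Tcf7l1, the TCF factor that mainly represses in pluripotent cells, was patchy in both clusters. Detection came in 6 of 10 cells of the epiblast-like cluster and 7 of 10 of the other. The highest levels were 10.29 in cell 19, 10.05 in cell 4, 10.02 in cell 18 and 9.98 in cell 7. The lowest were 3.25 in cell 10, 3.47 in cell 5 and 4.95 in cell 1, so high and low cells came from either cluster. The means of 8.0 ± 1.75 (SD, n = 10) and 7.20 ± 2.29 (SD, n = 10) differed by 0.79, and by 0.20 with values raised to the floor, less than the SD of either cluster. Leaving out any 1 cell gave 0.35 to 1.13, the lowest without cell 10 and the highest without cell 1. Its second probe set was alike at the level of the clusters, with detection in 15 cells, 11 of them shared with the first, and a difference of 0.69. Some single cells differed by it: cell 1 was detected at 8.60, cell 12 was at the lower limit of 3.25 and cell 18 was at 6.98. Cells 5 and 10 were at the lower limit by it as well, and cells 7 and 19 were again high, at 9.47 and 10.22. The r between the probe sets was 0.61 (Spearman rho 0.50). For genes that Tcf7l1 is known to repress in embryonic stem cells, its r was taken over values raised to the floor. Inside the epiblast-like cluster it was 0.56 with Esrrb, −0.42 with Nanog, −0.38 with Klf2, −0.46 with Tfcp2l1 and 0.14 with Nr0b1. Nr0b1 was detected in 0 of those 10 cells, so its r there reads only the array floors and says nothing about the gene. Inside the primitive endoderm-like cluster the same values were 0.30, −0.04, 0.37, 0.22 and 0.05. Each rests on 10 cells and is a description, and those with Klf2 and Tfcp2l1 had opposite signs in the clusters.

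Lef1, an activating partner of beta-catenin and a common target, stayed under the floor in all 20 cells by both of its probe sets. Its brighter probe set ran from 4.49 to 5.89. This says only that no signal rose above that of the unrelated-tissue probe sets, not that the transcript was absent.

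Among the Frizzled receptors and co-receptors of the set, Fzd5 was the one found in nearly every cell by its brighter probe set. All 10 epiblast-like cells had it, from 7.50 to 11.08, as did 9 of the 10 primitive endoderm-like ones. The exception was cell 4, at 4.06 by this probe set and at the lower limit by the other, whereas the other primitive endoderm-like cells ran from 8.40 to 11.07. The means of 9.28 ± 1.14 (SD, n = 10) and 9.14 ± 1.98 (SD, n = 10) differed by 0.15, and by −0.15 with values raised to the floor. Without any 1 cell the difference ran from −0.42 to 0.36, so no direction was set. The second Fzd5 probe set gave detection in 14 cells, 7 in each cluster, and followed the first with an r of only 0.25.

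Fzd7, another Frizzled receptor, had no cell above the floor by its brighter probe set, whose highest value was 5.64. The other probe set detected it in 3 cells, at 8.13 in cell 20, 7.85 in cell 4 and 7.50 in cell 16, and cell 8 lay just under its floor of 7.10 at 7.09. By the rule used here the gene stands as not detected, and these 3 cells go the other way. Cell 4 was thus the cell without Fzd5 and 1 of the 3 with Fzd7 by that probe set.

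The co-receptors differed in detection. Lrp5 had 1 probe set, which lay between 3.25 and 5.14 and under the floor in all 20 cells. Lrp6 was detected in 6 of the 10 epiblast-like cells and 7 of the other 10. Its values ran up to 9.22 in cell 12 and were at the lower limit in cells 3, 8 and 16. The means of 7.06 ± 1.72 (SD, n = 10) and 6.57 ± 2.17 (SD, n = 10) differed by 0.49, and by 0.01 with values raised to the floor. Leaving out any 1 cell gave 0.12, without cell 3 or cell 8, to 0.91, without cell 16. The detection calls depended on the floor: by the 99th percentile of the same probe sets it was detected in 2 cells, and a second probe set detected it in 1. Of the 13 Lrp6 cells, 12 also had Fzd5 detected, but Fzd5 was found in 19 of the 20 cells. Dkk1 and the co-receptor it blocks, Lrp6, were both detected in 5 cells, and 4 cells had Dkk1 without Lrp6.

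Porcn, the enzyme that attaches the lipid to WNT ligands, was detected in all 10 epiblast-like cells, from 7.86 in cell 9 to 10.34 in cell 19. The primitive endoderm-like cluster had it in 8 of 10 cells, with values under the floor in cell 8 at 5.0 and cell 10 at 7.29, with a highest value of 9.73 in cell 3. The other 8 cells of this cluster lay inside the range of the epiblast-like cells. The means were 9.19 ± 0.70 (SD, n = 10) and 8.30 ± 1.37 (SD, n = 10), a difference of 0.90, or 0.67 with values raised to the floor. Leaving out any 1 cell gave 0.53 to 1.06, the lowest without cell 8. Porcn has 1 probe set, so there is no second reading.

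**Figure D3:**
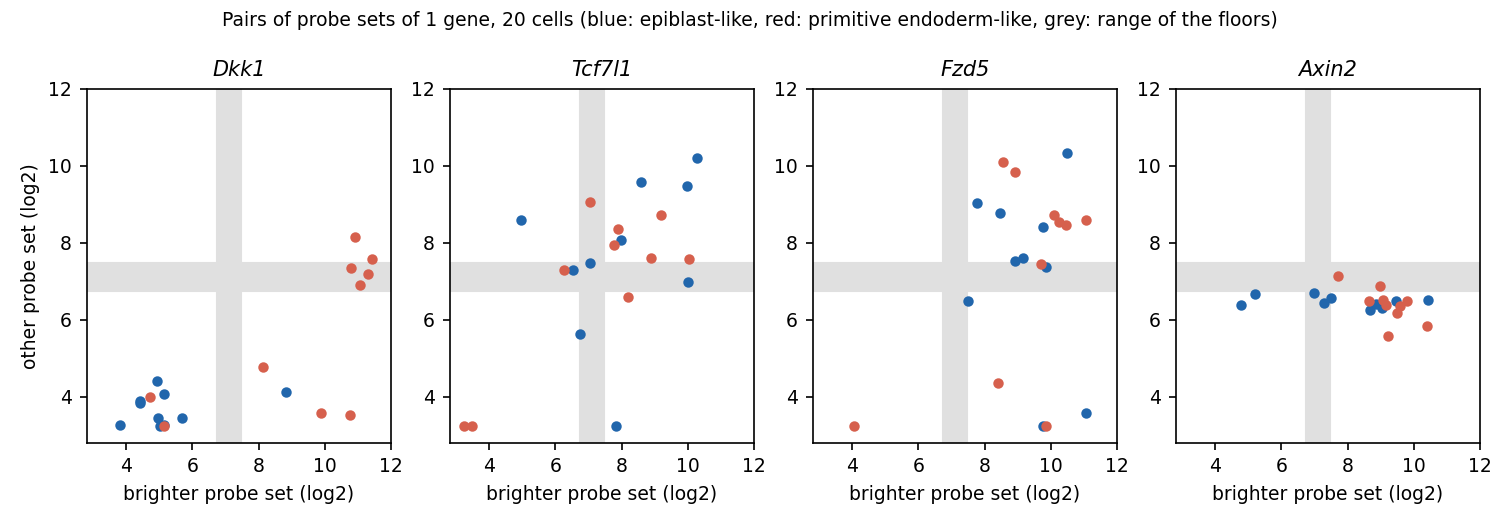
The 2 probe sets of Dkk1, Tcf7l1, Fzd5 and Axin2 against each other in the 20 cells (both axes log2 level; blue epiblast-like, red primitive endoderm-like; grey bands are the range of the floors). The Dkk1 and Tcf7l1 probe sets rise together (r of 0.77 and 0.61), Fzd5 little (r of 0.25), and the second Axin2 probe set stays near or under the floor.

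By the as-read values 2 of the 6 detected genes, Dkk1 and Axin2, were at least 1 log2 unit higher in the primitive endoderm-like cells and 0 were so in the epiblast-like cells, and with values raised to the floor only Dkk1 remained. The shares over all genes were 8.18% and 11.7% as read, and 2.8% and 3.36% with values raised. As read, the median difference of the 6 was 0.32, against 0.05 over all 9545 genes. With values raised to the floor the 6 genes had either sign. Dkk1 was at −2.64, Axin2 at −0.95, Fzd5 at −0.15, Lrp6 at 0.01, Tcf7l1 at 0.20 and Porcn at 0.67. On the as-read scale, how many of them pass 1 unit depended on single arrays. Without cells 4, 9, 17 and 20, 5 of the 6 did so as read. Axin2 was at −1.57 and Dkk1 at −3.80. In the epiblast-like direction Lrp6 was at 1.13, Porcn at 1.29 and Tcf7l1 at 1.52. Values raised to the floor without these cells are not given here. Leaving out cell 4 alone gave 4, also as read.

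Whether any of the genes varied between cells by more than genes of like level was tested with an F test. It set each gene's variance over the 20 cells against the prior variance that limma fits at its mean level. The p-values were Benjamini-Hochberg adjusted over the 9545 genes. The test called 0 genes (0.0% of those tested), and 27 had an unadjusted p under 0.05. Dkk1 had a variance 12.5 times the fitted prior, at an unadjusted p of 0.0605 and an adjusted p of 0.738. Its SD over the 20 cells, 2.93, exceeded that of 99.3% of the genes. Of the other 5, the unadjusted p was 0.131 for Tcf7l1, 0.158 for Lrp6, 0.202 for Fzd5, 0.240 for Axin2 and 0.388 for Porcn. The prior had only 2.24 degrees of freedom, which leaves such a test little reach.

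The 6 genes shared little of their pattern. Over the 15 pairs, with values raised to the floor, the r in the 20 cells ran from −0.26 for Dkk1 and Porcn to 0.39 for Tcf7l1 and Porcn. That of Dkk1 with Axin2 was 0.33. Dkk1 was detected in 9 cells and Tcf7l1 and Lrp6 in 13 each, and their other values here are array floors. These points share the array and the amplification of each cell. For the 4 genes detected in 3 to 17 cells, which leaves out Fzd5 and Porcn, 9450 genes outside the WNT and marker lists were searched for the most similar pattern, with values raised to the floor. For Dkk1 the closest were Ssh1, a phosphatase of the actin regulator cofilin (r 0.86, detected in 7 cells), Emb, a membrane glycoprotein (r 0.84, 8 cells), and Pfkl, a glycolytic enzyme (r 0.84, 10 cells). For Axin2 they were Sgpl1 (r 0.75), Xpo1 (r 0.72) and Surf1 (r 0.71). For Tcf7l1 they were Lmnb2, a nuclear lamin (r 0.87), Klhl7 (r 0.76) and Rinl (r 0.70), and for Lrp6 they were Tpcn1 (r 0.81), Elmod2 (r 0.76) and Rab3gap1 (r 0.75). Each is the top of a long search, so a high r by itself says little.

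The rest of the pathway was read from lists by role. Of 100 further genes with a probe set, 52 were detected in at least 3 cells, close to the 52.5% of all genes. Of the 100, 23 were detected in all 20 cells, against 2896 of all 18193 named genes. Another 38 were detected in 0 cells, for which the share over all genes is not given here. As read, 8 of the 52 were at least 1 log2 unit higher in the epiblast-like cells, against 11.7% of all genes, and 1, Nr0b1, was higher in the primitive endoderm-like cells, against 8.18%. With values raised to the floor 4 and 0 remained, against 3.36% and 2.8% of all genes; the 4 were Nanog, Klf2, Sfrp1 and Myc. Nanog and Klf2 are also epiblast markers, and without the list of Tcf7l1-repressed genes the counts were 6 and 0 of 47 as read and 2 and 0 with values raised.

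Of 19 WNT ligand genes 4 were detected in at least 3 cells and 13 in 0. Over all 18193 named genes, 52.5% were detected in at least 3 cells, and the share in 0 cells is not given here. The same holds for the receptor, antagonist and target counts below, and these lists were not tested against all genes. Wnt6 was detected in 20 cells at 7.84 ± 0.70 (SD, n = 20), with its highest values, 9.89 and 9.06, in cells 4 and 20, both primitive endoderm-like. A second Wnt6 probe set detected it in 1 cell. Wnt1 was detected in 19 cells at 7.65 ± 0.32 (SD, n = 20), close to the floor. Of the genes that release or inactivate ligands, Notum, an enzyme that removes the lipid, was detected in 15 cells at 7.17 ± 0.23 (SD, n = 20), also near it, and Wls, the ligand transporter, in 0 cells; Wls is named here after its values were seen. Of 19 receptors and modulators 8 were detected in at least 3 cells and 9 in 0 by the brightest probe set; of the 9, another probe set of Fzd6 detected it in 2 cells. Lgr4, a receptor for R-spondins, was found in all 20 cells, at 10.34 ± 0.42 (SD, n = 10) in the epiblast-like and 9.69 ± 0.72 (SD, n = 10) in the primitive endoderm-like cells. Rspo3, an R-spondin, was detected in 20 cells by 1 probe set and in 0 by its other, so its level is uncertain.

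Of 14 other antagonists with a probe set, 4 were detected in at least 3 cells and 8 in 0. Sfrp1, a secreted protein that binds WNT ligands, was detected in all 10 epiblast-like cells and 6 of the other 10, with means of 9.65 ± 0.96 (SD, n = 10) and 7.09 ± 2.21 (SD, n = 10). Its difference was 2.56 as read and 1.57 with values raised to the floor. Its 4 other probe sets detected it in 11, 4, 2 and 2 cells, and with values raised gave differences of 0.09 to 0.18, so the size rests on the brightest. Apcdd1, a membrane antagonist, was detected in 18 cells and differed by 1.22 as read, or by 0.55 with values raised. By its other probe sets the as-read difference ran from 0.07, with detection in 0 cells, to 1.13, with detection in 18. Sost, a secreted protein that binds Lrp5 and Lrp6, was detected in 20 cells by 1 probe set, at 7.72 ± 0.28 (SD, n = 20), and in 0 by its other.

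Of 19 cytoplasmic transducers 17 were detected in at least 3 cells and 11 in all 20, and of 14 nuclear partners 11 and 4 were. Of all 18193 named genes, 9545 (52.5%) were detected in at least 3 cells and 2896 in all 20, and the lists were not tested against them. Ctnnb1, which encodes beta-catenin, was level across the cells at 12.32 ± 0.13 (SD, n = 20), with a difference of −0.07. Tnks2, a tankyrase that marks Axin for destruction, differed by −0.51. Tcf7l2, another TCF factor, was detected in 20 cells with a difference of 0.02 by its brightest probe set, but its 3 others detected it in 0, 1 and 15 cells and the last of these differed by 2.08, so its distribution depends on the probe set. Ctbp2, a co-repressor, was detected in 20 cells with a difference of −0.12.

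Of 8 further target genes with a probe set, 2 were detected in at least 3 cells and 4 in 0 by the brightest probe set. Ccnd1, a cyclin, was among the 4, but another of its probe sets detected it in 4 cells. Myc was higher in the epiblast-like cells, at 9.83 ± 1.31 (SD, n = 10) against 7.58 ± 2.52 (SD, n = 10), and Tbx3 had the opposite sign, at 10.34 ± 0.97 (SD, n = 10) against 11.18 ± 0.52 (SD, n = 10). By their brightest probe sets the targets gave no common direction, with Axin2, Dkk1 and Tbx3 on one side and Myc on the other. Of these, only Dkk1 and Myc passed 1 log2 unit with values raised to the floor. The second Axin2 probe set had the opposite sign. Of the genes repressed by Tcf7l1 in stem cells, Nanog differed by 4.28 and Klf2 by 5.40. Esrrb, at 0.78, and Tfcp2l1, at 0.46, were detected in all 20 cells, and Nr0b1 was detected in 3 cells, all of them primitive endoderm-like.

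**Figure D4:**
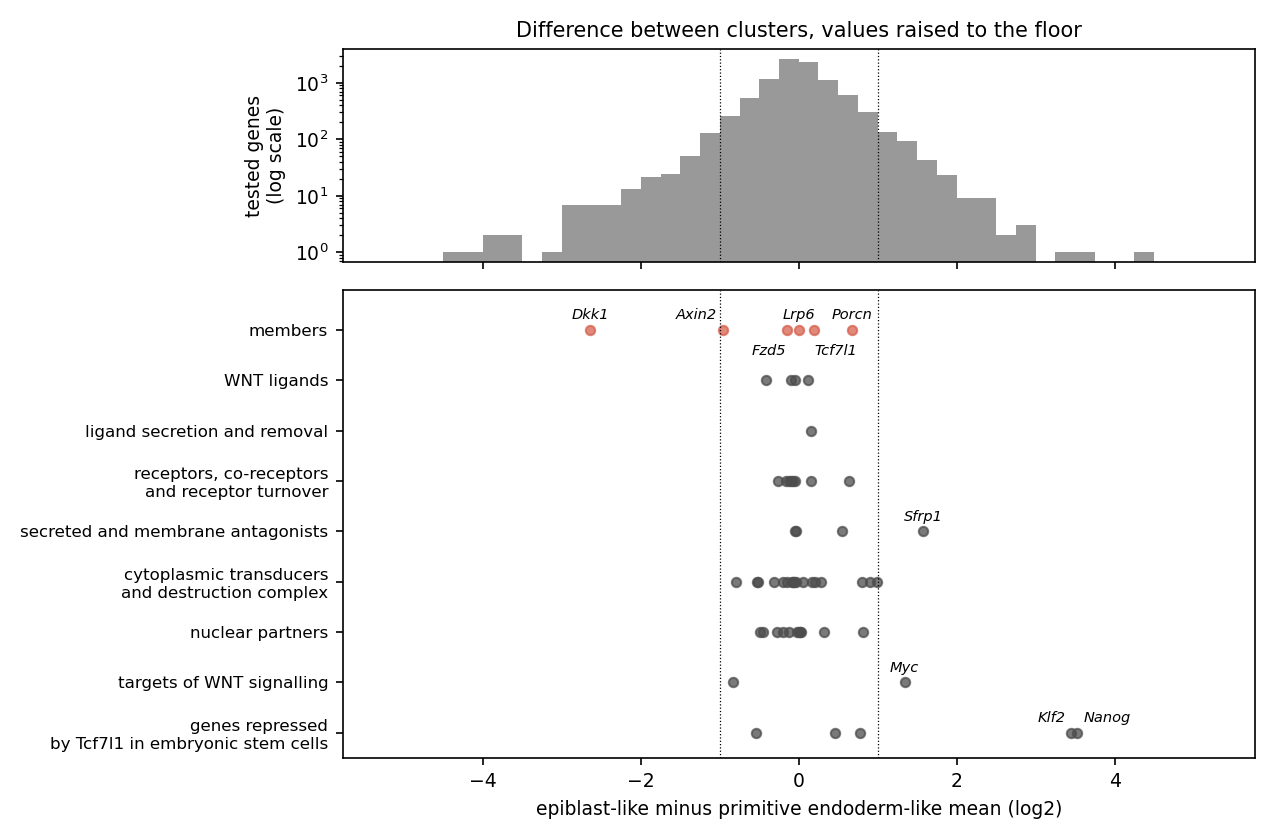
Difference between cluster means (epiblast-like minus primitive endoderm-like, log2, values under the floor raised to it) for all 9545 genes detected in at least 3 cells (upper histogram, log count axis) and for the WNT genes by role (lower panel, 1 point per gene; red, the 6 genes of the set; dotted lines at 1 unit either way). Dkk1 at −2.64 is the only WNT gene past the line on the primitive endoderm-like side, and Sfrp1, Myc, Klf2 and Nanog lie past the other.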

How the data were processed

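Per the labels' protocols, cDNA amplified by PCR from 1 cell was made into biotin-labelled cRNA for each of 20 Affymetrix arrays. The authors deposited a linear intensity per probe set, between 1 and 26616; for its software, background correction, normalization and build, nothing is stated in the sources used here. Of 45101 probe sets, 64 were controls, 34945 were annotated to 1 gene symbol, 932 to several and 9160 to none; only the first were named, and 34741 of them matched the RefSeq gene table by Entrez identifier. Arrays had 2%-trimmed means between 181 and 220, so the arrays were quantile normalized. The pseudocount was the 25th percentile of an array, as a median over the arrays. The precision is limited by the number of arrays; no 2 arrays correlated above 0.99.

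Genes detected in 3 or more cells were analysed with limma 3.58.1 (R 4.3.3) for variance and clustered by Ward's method (scipy 1.17.1) on the 500 with the largest variance ratio; 2 clusters gave the best silhouette (scikit-learn 1.9.0). The variance script was tested on simulated data. Of the further WNT genes, the text names those past 1 log2 unit both as read and raised to the floor, and the 2 of each list detected in the most cells. Genes most alike were the 3 with the highest r. Other genes were named to account for a small count or a stated difference. The genes and lists were chosen with earlier results of these data known. Alternatives were the deposited values, other pseudocounts (10th and 40th percentiles), floor, probe set rules, cluster genes and left-out cells.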

Additional observations from a re-analysis of the deposited data

How the results depend on the processing

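The count of the set's genes detected in 3 or more cells was 6, and it ran from 5 to 7 under the alternatives. The number at least 1 log2 unit apart between clusters was 2. It was 1 with the mean of all probe sets and with values raised to the floor, 4 with clusters from 1000 genes, 5 without the 4 cells of lowest mean correlation, and 2 to 4 when each cell was left out in turn. Of the further WNT genes, the 8 higher in the epiblast-like cells became 4 with values raised to the floor, and leaving out each cell gave 7 to 9. The 1 higher in the primitive endoderm-like cells became 2 with the deposited values, with either other pseudocount and without the cell of lowest median intensity, 3 with clusters from 1000 genes, and 0 with the floor at the 99th percentile or with values raised to the floor; leaving out each cell gave 0 to 3, with 0 without cell 17 and 3 without cell 18. The cause of these moves was not tested. The Dkk1 difference kept its sign under every alternative run, at −3.06 with the mean of its probe sets and −1.93 by its second probe set. The Axin2 difference reversed to 0.094 by its second probe set, and the cause was not tested. Cells with detection numbered 5 for Dkk1 and 4 for Lrp6 with the mean of all probe sets, and 7 for Tcf7l1 and 2 for Lrp6 with the 99th percentile; Fzd7 had 3 with the 40th-percentile pseudocount. Cell 16 changed cluster with that pseudocount, with the 99th percentile and with 1000 genes. Variance tests called 0 genes under every setting run, with 1 to 432 at an unadjusted p under 0.05 in limma. A signal under the floor gives only an upper bound on a level. The leave-one-out and second-probe-set alternatives were chosen after seeing the data.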
